A study of Mus musculus with 4 samples.

Results

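The genes described here are 10 regulators of the mitochondrial pathway of apoptosis that belong to the BCL2 family. They were taken by gene symbol from a count table of 24421 genes. They comprise the anti-apoptotic genes Bcl2, Bcl2l1 and Mcl1, the effector genes Bax, Bak1 and Bok, and the BH3-only genes Bid, Bbc3, Pmaip1 and Bcl2l11. All 10 were present in the table, and all 10 passed the filter on low counts that left 14140 genes for testing. The counts came from RNA sequencing of mouse LSK cells, sorted from bone marrow as cells that lack lineage markers and carry Sca-1 and Kit, a gate in which blood stem cells lie together with multipotent progenitors. Their donors were Zfp521-/- mice (KO, 2 libraries) and control littermates with the genotype wild type (WT, 2 libraries). Zfp521 encodes a zinc finger transcription cofactor. Each library is described as an independent RNA sample of pooled cells, and the labels give neither the age of the mice nor the number of animals in a pool. They name no tissue to which the deletion was confined. The p-values measure the spread between these libraries, which may be in part technical.

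Library totals were 22000036 and 17787425 counts in KO and 29863594 and 25813391 counts in WT. Zfp521 itself had 308 and 215 counts in KO and 1561 and 1429 counts in WT (log2 fold change -2.19 with an SE of 0.23, adjusted p = 0.000491 by edgeR's quasi-likelihood test). The 4 Y-linked genes examined summed to 9 and 12 counts in KO, 14 counts in WT replicate 1 and 5606 counts in WT replicate 2, so WT replicate 2 had a male pattern and the other 3 libraries did not. Of 10 LSK markers, among them Kit and Ly6a (which encodes Sca-1), none was higher and 1, Cd34, was lower in KO; 1 higher and 2 lower members had an unadjusted p under 0.05, and DESeq2 called 0 higher and 1 lower. Their summed level was 3138 and 2857 CPM in KO and 2896 and 3023 CPM in WT, where CPM is a gene's count scaled to the library's effective size.

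Proteins of the BCL2 family decide whether the outer mitochondrial membrane is breached, the step that releases cytochrome c and starts the caspase cascade. BAX and BAK form the pores. BCL2, BCL-XL (from Bcl2l1) and MCL1 hold them in check, and BH3-only proteins either occupy the anti-apoptotic proteins or activate the effectors. In mouse hematopoietic stem cells, MCL1 is known as a factor needed for survival, and forced expression of BCL2 is known to enlarge the stem cell pool. The feature that all these proteins share is the BH3 region, through which one member docks into the groove of another.

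The coding sequence of that region is shown to make visible what unites genes that otherwise differ in length and in level. A search in frame of the longest GENCODE M21 coding sequence of each gene looked for a leucine codon, 3 codons of any kind, a glycine or alanine codon and an aspartate codon. It found exactly 1 match in each of the 9 members searched and in Bmf, a further BH3-only gene described below. The same 6-codon pattern occurred in 23.9% of 21504 mouse coding sequences, so it is not restricted to this family. Capitals mark the 6 codons, with 2 codons on each side in lower case, written 5′ to 3′ on the coding strand.
Bcl2: ctgaccCTCCGCCGGGCTGGGGATgacttc
Bcl2l1: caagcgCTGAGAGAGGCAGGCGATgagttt
Mcl1: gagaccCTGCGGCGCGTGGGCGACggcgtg
Bax: gagtgtCTCCGGCGAATTGGAGATgaactg
Bak1: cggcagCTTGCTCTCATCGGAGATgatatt
Bok: acagtgCTGCTGCGCTTGGGAGATgagctg
Bid: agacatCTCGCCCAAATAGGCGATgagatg
Bbc3: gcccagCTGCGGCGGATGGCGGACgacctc
Bcl2l11: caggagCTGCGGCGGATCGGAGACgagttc
Bmf: agaaagCTTCAGTGTATTGCAGACcagttc
The fifth codon of the core is one for glycine in every sequence shown except those of Bbc3 and Bmf, where it is one for alanine. The sequence of Pmaip1 is not shown.

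The comparison of KO with WT asked whether the family's transcripts differ between the genotypes. One member rose and one fell: Pmaip1, which encodes NOXA, was 10.3-fold higher in KO, and Bok was 8.03-fold lower. The other 8 members were not called, with log2 fold changes between -0.66 and 0.51. Across all genes tested 3.77% were called higher and 3.01% lower in KO, 6.78% in either direction, and 2 of 10 members is too small a count to read against that background. The median log2 fold change was -0.24 over the 10 members and 0.0151 over all genes. The groups did not overlap in CPM for 7 of the 10 members, 5 lower and 2 higher in KO, against 56.5% of all genes tested (27.6% lower and 28.8% higher). A gene that is lower in such bulk samples may be carried by fewer cells or by less RNA in each cell, and these cannot be told apart.

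**Figure D1:**
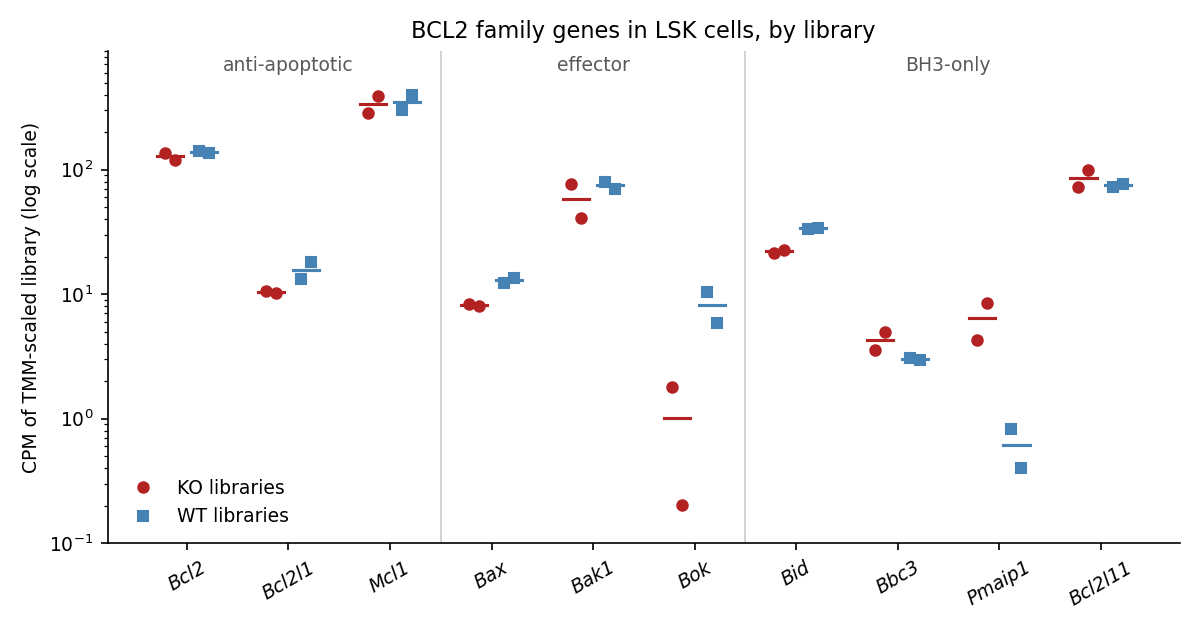
Level of each member in every library, in CPM on a log scale, with KO libraries as circles left of WT libraries as squares and a short line at each group mean (n = 2 each). Pmaip1 lies between 4.30 and 8.54 CPM in KO, above both WT libraries, and Bok lies between 0.203 and 1.81 CPM in KO, below both WT libraries, while Mcl1 and Bcl2 stay above 100 CPM in all 4 libraries.

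Of the anti-apoptotic genes none was called. Mcl1, on chromosome 3 (95658788 to 95663176, plus strand, mm10), encodes a short-lived protein. It had 283 and 389 CPM in KO replicates 1 and 2 and 302 and 396 CPM in WT replicates 1 and 2. The groups overlapped, and in each genotype replicate 2 was the higher library. Its log2 fold change was -0.0553 (95% interval -0.46 to 0.35, edgeR adjusted p = 0.886), and its sign turned without KO replicate 1 (0.15), without WT replicate 2 (0.14) and with upper quartile factors (0.026). Bcl2, on chromosome 1 (106538178 to 106714274, minus strand), had 135 and 120 CPM in KO and 142 and 136 CPM in WT. All 4 libraries were thus close to one another. Bcl2 differed by -0.12 on the log2 scale (95% interval -0.46 to 0.21, adjusted p = 0.661 in edgeR). An annotated antisense gene overlaps exons of Bcl2, and without a stated strand setting reads of both may be counted together.

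Bcl2l1, on chromosome 2 (152780668 to 152831728, minus strand), encodes BCL-XL, best known in blood for the survival of late erythroid cells and platelets. It had 10.6 and 10.2 CPM in KO and 13.2 and 18.2 CPM in WT. Both KO libraries were below both WT libraries, and WT replicate 2 stood above the rest. The difference of -0.59 on the log2 scale (95% interval -1.28 to 0.10) did not pass in edgeR (adjusted p = 0.273). These intervals leave room for a fall of 27.4% in Bcl2, 27.3% in Mcl1 and 58.9% in Bcl2l1, so a moderate change in Bcl2l1 was not detectable here.

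The effector genes differed in how they behaved. Bok, on chromosome 1 (93685660 to 93695764, plus strand), encodes a relative of BAX and BAK whose protein is known to be removed by the proteasome. It had 40 and 4 counts in KO and 292 and 147 counts in WT, or 1.81 and 0.203 CPM in KO and 10.5 and 5.92 CPM in WT. The KO libraries were below both WT libraries, and the libraries within each genotype also lay far apart. The mean was 1.01 ± 1.14 CPM in KO and 8.20 ± 3.23 CPM in WT (SD, n = 2 each), and the log2 fold change was -3.005 with an SE of 0.77 (95% interval -4.69 to -1.32, adjusted p = 0.0407 by edgeR's quasi-likelihood test). When WT replicate 1 was left out, Bok no longer passed (log2 fold change -2.54, adjusted p = 0.267 in edgeR), nor did it without WT replicate 2 (-3.38, adjusted p = 0.0684), and it was -5.31 without KO replicate 1 and -2.19 without KO replicate 2. Over all 11 alternatives the adjusted p lay between 2.7e-06 and 0.267, and the log2 fold change was negative in every one. The KO value rests on 40 counts in one library and 4 in the other.

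The promoter of Bok is shown because it is the member that fell, as the 250 bases before and 50 bases after the RefSeq start on GRCm38.p6, chr1:93685325-93685624, plus strand.
Bok promoter: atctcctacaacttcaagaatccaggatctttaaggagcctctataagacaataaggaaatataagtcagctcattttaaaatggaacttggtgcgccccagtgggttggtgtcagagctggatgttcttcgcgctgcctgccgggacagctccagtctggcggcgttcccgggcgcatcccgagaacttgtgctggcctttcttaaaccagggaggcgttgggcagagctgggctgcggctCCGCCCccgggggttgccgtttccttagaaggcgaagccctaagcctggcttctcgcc
Capitals mark the 1 GC box (GGGCGG on either strand) in this window, a motif held by 35.7% of 32851 RefSeq mouse promoter windows of the same length. The letters of the CCAAT box (CCAAT, in 37.4% of windows), the E-box (CANNTG, in 72.3%), the TATA box (TATAAA, in 13.6%), the CACC box (CCACCC, in 31.5%) and the EBF palindrome (TCCC, NN and GGGA in a row, in 0.904%) are not in this window on either strand. The window is 56.3% G and C and holds 16 CG dinucleotides. The GENCODE M21 start of Bok, 93685660, lies past the end of this window, so the window applies to the RefSeq start only.

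Bak1, on chromosome 17 (27019810 to 27029009, minus strand), had 76.3 and 40.7 CPM in KO and 78.8 and 70.3 CPM in WT. KO replicate 1 lay within the WT range, and KO replicate 2 stood well below the other 3 libraries. Its log2 fold change of -0.35 was not called (95% interval -0.91 to 0.21, edgeR adjusted p = 0.425). It was -0.88 and past the threshold without KO replicate 1 (edgeR adjusted p = 0.00999), and 0.0236 without KO replicate 2 (adjusted p = 0.966), so the value turns on which KO library is used. Ggnbp1, annotated on the opposite strand with exons that overlap Bak1, had 245 and 227 counts in KO and 124 and 80 counts in WT. Whether this overlap adds reads to the Bak1 counts or removes them was not tested.

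Bax, on chromosome 7 (45461697 to 45466898, minus strand), had 8.32 and 8.03 CPM in KO and 12.3 and 13.6 CPM in WT. Both KO libraries were lower and the replicates were close. On the log2 scale Bax was at -0.66 relative to WT (95% interval -1.37 to 0.0498), which did not pass in edgeR (adjusted p = 0.236). It lay between -0.73 and -0.60 with each library left out. Another annotated gene, Gm45808, shares exonic bases with Bax on the same strand, and its part in the Bax counts was not tested.

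Among the BH3-only genes, Pmaip1 rose. NOXA, its product, is known to bind MCL1 selectively and to promote its degradation, and the gene is a known target of p53 and of stress signals. Pmaip1 lies on chromosome 18 (66458533 to 66465565, plus strand), the chromosome that also carries Zfp521 (13687013 to 13972787, minus strand). It had 95 and 168 counts in KO and 23 and 10 counts in WT, or 4.30 and 8.54 CPM in KO and 0.826 and 0.403 CPM in WT. The lower KO library was above the higher WT library. The log2 fold change was 3.36 with an SE of 0.67 (adjusted p = 0.0152 by edgeR's quasi-likelihood test), and the 95% interval ran from 3.74-fold to 28.4-fold. Pmaip1 no longer passed without KO replicate 2 (2.78, adjusted p = 0.0670 in edgeR) and without WT replicate 2, the library with the male pattern (2.93, adjusted p = 0.0837). Its adjusted p over the 11 alternatives ranged from 1.5e-05 to 0.0837, and its log2 fold change from 2.78 to 3.97.

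**Figure D2:**
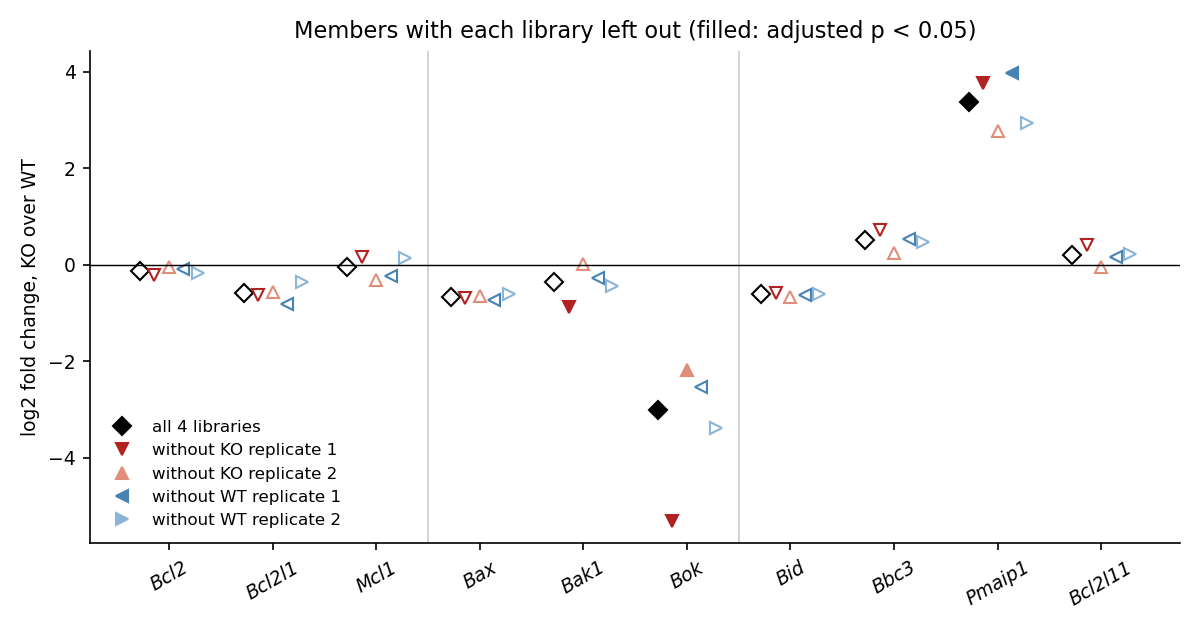
Log2 fold change (KO over WT) of each member in the fit of all 4 libraries and with each library left out, filled where the adjusted p is under 0.05. Pmaip1 stays between 2.78 and 3.97 and Bok between -5.31 and -2.19, while Bak1 runs from -0.88 to 0.0236.

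Bid, on chromosome 6 (120891930 to 120916853, minus strand), encodes the protein through which caspase-8 links death receptors to mitochondria. It had 21.4 and 22.7 CPM in KO and 33.3 and 34.2 CPM in WT. The groups were well apart and the replicates close. Bid was at -0.61 on the log2 scale relative to WT (95% interval -1.12 to -0.11, unadjusted p = 0.0215), yet it did not pass in edgeR after adjustment over all genes (adjusted p = 0.127), nor under any of the 11 alternatives (0.0745 to 0.454). Exons of Bcl2l13 on the opposite strand overlap Bid. Bcl2l13 had 1390 and 1152 counts in KO and 2171 and 1633 counts in WT. Whether the overlap adds reads to the Bid counts or removes them was not tested.

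Bcl2l11, on chromosome 2 (128126038 to 128162547, plus strand), encodes BIM, a main inducer of cell death after cytokine withdrawal in blood cells. It had 72.9 and 99.7 CPM in KO and 73.0 and 77.3 CPM in WT. KO replicate 1 was level with the WT libraries and KO replicate 2 above them. A log2 fold change of 0.20 (95% interval -0.22 to 0.62, edgeR adjusted p = 0.552) became -0.0517 without KO replicate 2. Bbc3, on chromosome 7 (16308393 to 16318205, plus strand), encodes PUMA, a p53 target. It had 79 and 98 counts in KO and 85 and 73 counts in WT, or 3.57 and 4.98 CPM in KO and 3.05 and 2.94 CPM in WT. Its log2 fold change was 0.51 with a wide 95% interval of -0.65 to 1.67 (edgeR adjusted p = 0.589), so neither a fall nor a rise of moderate size was detectable at these counts.

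Levels were compared between genes as CPM per kilobase of annotated exons, so that long transcripts do not rank higher for their length. In KO the order began with Mcl1 (98.3 ± 22.1 CPM per kb), Bak1 (24.3 ± 10.5), Bcl2 (13.9 ± 1.15) and Bcl2l11 (10.8 ± 2.36), all in CPM per kb. Bid followed at 6.21 ± 0.245 and Bax at 5.19 ± 0.131 CPM per kb. Next in KO came Pmaip1 at 2.35 ± 1.10, Bcl2l1 at 2.27 ± 0.0715 and Bbc3 at 2.01 ± 0.469 CPM per kb, whose libraries overlapped, and Bok was last at 0.547 ± 0.617 CPM per kb (SD, n = 2). In WT, Mcl1 at 102 ± 19.3, Bak1 at 31.0 ± 2.49 and Bcl2 at 15.2 ± 0.494 CPM per kb again led. Bid at 9.50 ± 0.182 and Bcl2l11 at 9.36 ± 0.375 CPM per kb overlapped, and Bax stood at 8.20 ± 0.575 CPM per kb. Bok at 4.46 ± 1.76 and Bcl2l1 at 3.42 ± 0.773 CPM per kb also overlapped, and Bbc3 at 1.41 ± 0.0382 and Pmaip1 at 0.225 ± 0.110 CPM per kb closed the order (SD, n = 2). Pmaip1 thus ranked 7 in KO and 10 in WT, and Bok ranked 10 in KO and 7 in WT, which restates their changes. Per longest transcript, Pmaip1 in KO was at 2.35 CPM per kb, below Bcl2l1 at 4.05 and level with Bbc3 at 2.36. Bok in WT was then at 5.59 CPM per kb, below Bcl2l1 at 6.11, so these ranks depend on the length used. Exon lengths depend on which isoforms the cells use, which these counts do not show.

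Summed per kilobase by role, the 3 anti-apoptotic genes came to 99.7 and 129 CPM per kb in KO and 107 and 135 CPM per kb in WT. Mcl1 made up most of each of these sums. The 3 effector genes came to 38.0 and 22.1 CPM per kb in KO and 46.2 and 41.0 CPM per kb in WT, with the low value in KO replicate 2 following Bak1. The 4 BH3-only genes came to 18.4 and 24.3 CPM per kb in KO and 20.2 and 20.8 CPM per kb in WT. The effector sum was the one of these sums in which the genotypes did not overlap. Among single genes such a gap was common, at 56.5% of all genes tested. Bak1, the largest part of the effector sum, itself overlapped between the genotypes.

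Ratios of counts within a library are free of its depth and scaling, and are given as a description, since 2 libraries against 2 allow no p below 0.333 in an exact permutation test. For every 100 counts of Mcl1, whose protein NOXA binds, there were 1.52 and 2.19 counts of Pmaip1 in KO and 0.273 and 0.102 in WT. The mean ratio was 9.90 times that of WT. For every 100 counts of Bak1 there were 2.37 and 0.499 counts of Bok in KO and 13.3 and 8.41 in WT. For every 100 counts of Bcl2 there were 6.16 and 6.69 counts of Bax in KO and 8.64 and 9.99 in WT. In the same terms Bcl2l1 had 7.87 and 8.46 counts in KO and 9.27 and 13.4 in WT. These 4 ratios did not overlap between the genotypes. The CPM of their numerators, Pmaip1, Bok, Bax and Bcl2l1, did not overlap either, so the ratios largely restate the single-gene values. Such a gap in CPM was seen in 56.5% of all genes tested. The ratio of Bcl2l11 to Bcl2 did overlap, at 54.0 and 83.1 per 100 in KO and 51.4 and 56.9 in WT. So did that of Mcl1 to Bcl2, at 209 and 324 per 100 in KO and 213 and 291 in WT.

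Of 14 further genes named for the BCL2 family, 10 could be tested, and in edgeR 1 was higher in KO and none was lower. At an unadjusted p under 0.05 in edgeR 2 of these further genes were higher and none was lower, and DESeq2 called 1 higher and none lower. Across all genes tested 3.77% were called higher, and 1 of 10 is too small a count to read against that share. The gene called higher was Bmf, a BH3-only gene whose product is held by the dynein light chain DYNLL2. Bmf, on chromosome 2 (118528757 to 118549687, minus strand), had 27.0 and 31.96 CPM in KO and 5.17 and 7.53 CPM in WT. Both KO libraries stood far above both WT libraries. The rise was 4.65-fold (log2 fold change 2.22 with an SE of 0.31, adjusted p = 0.00249 by edgeR's quasi-likelihood test), and it passed under all 11 alternatives, with an adjusted p of at most 0.0190. Per kilobase of annotated exons, Bmf reached 5.62 ± 0.662 CPM per kb in KO and 1.21 ± 0.317 CPM per kb in WT, which in KO is close to Bax and Bid. Per longest transcript, Bmf in KO was at 6.35 CPM per kb, below Bax at 7.43 and Bid at 9.13. The anti-apoptotic gene Bcl2l2 had 28.4 and 28.05 CPM in KO and 20.5 and 21.5 CPM in WT (log2 fold change 0.43, edgeR adjusted p = 0.298).

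The Bcl2a1 genes encode anti-apoptotic A1 proteins and are near-identical copies. Reads that fit several copies may be split among them or left out of the counts, and their handling is not given. Bcl2a1a had 13 and 11 counts in KO and 6 and 0 counts in WT, Bcl2a1b had 15 and 9 counts in KO and 5 and 1 in WT, and Bcl2a1d had 16 and 16 counts in KO and 5 and 10 in WT. None of them was called (edgeR adjusted p = 0.315, 0.274 and 0.434). The BH3-only gene Bad had 14.9 and 11.4 CPM in KO and 12.6 and 9.86 CPM in WT, and the groups overlapped. The remaining tested genes Bcl2l12, Bcl2l13, Bcl2l14 and Bcl2l15 had log2 fold changes of 0.62, -0.24, 1.28 and 0.54. None of them was called (Bcl2l14, edgeR unadjusted p = 0.0361 and adjusted p = 0.171). Bik had 0 and 2 counts in KO and 2 and 0 counts in WT, Bcl2l10 had 0 and 6 counts in KO and 0 and 0 in WT, and Hrk and Bcl2a1c had no count in any library, where 3 counts in a library would be between 0.108 and 0.152 CPM. The median log2 fold change of the 10 tested genes was 0.95, but 4 of them are Bcl2a1 copies or Bcl2l15, each with a mean under 1 CPM in both groups. Bcl2a1a, Bcl2a1b and Bcl2a1d passed the filter on low counts only through their KO libraries, which favours a positive value. No reading is drawn from this median.

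**Figure D3:**
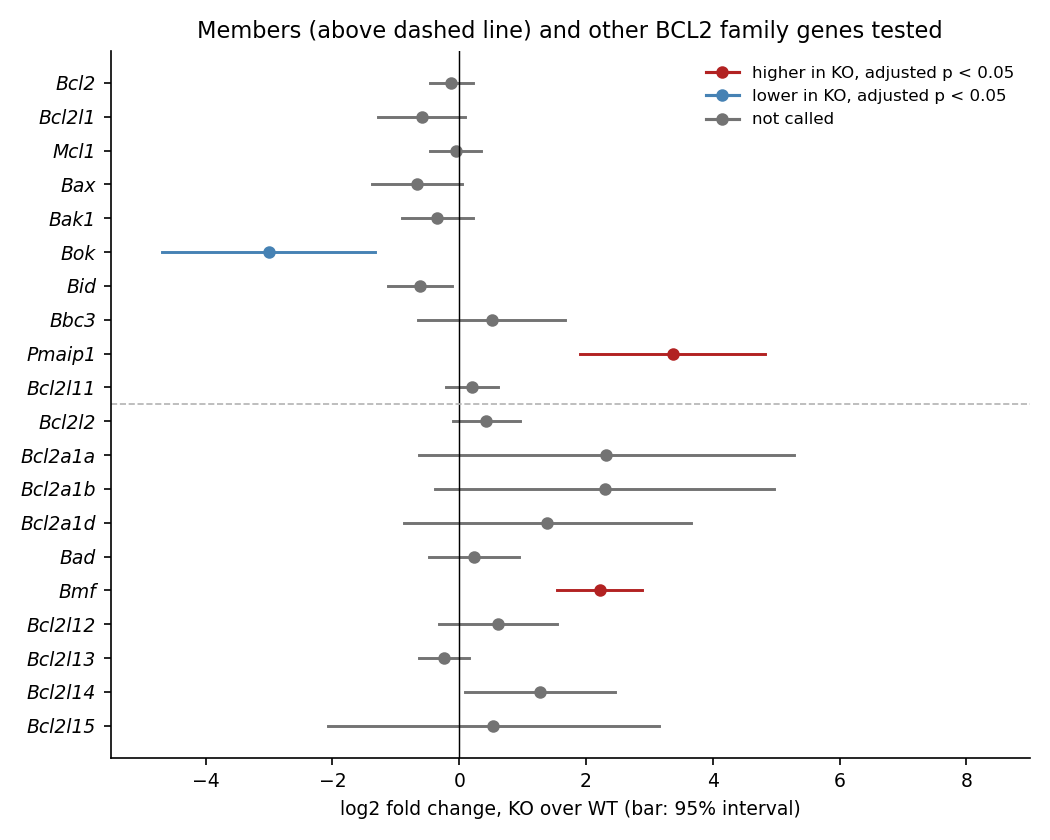
Log2 fold change (KO over WT) with its 95% interval for the 10 members, above the dashed line, and for the 10 other family genes tested, below it. Bok is the one called lower and Pmaip1 and Bmf are the ones called higher, and the intervals of the Bcl2a1 copies and Bcl2l15 span 0 widely.

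Downstream of the family, the gene for cytochrome c was lower and that for an inhibitor of apoptosis higher. Of 16 genes of the apoptosome and caspases, all tested, 1 was higher and 1 lower in KO, with a median log2 fold change of -0.09. At an unadjusted p under 0.05 in edgeR 1 was higher and 3 lower, and DESeq2 called 1 higher and 2 lower. The share called over all genes tested was 3.77% higher and 3.01% lower, and counts this small cannot be read against it. Cycs, which encodes cytochrome c, was at 63.4 ± 9.83 CPM in KO and 104 ± 16.1 CPM in WT (SD, n = 2 each; log2 fold change -0.72, SE 0.19, edgeR adjusted p = 0.0442). Cycs was not called when WT replicate 1 (adjusted p = 0.394), WT replicate 2 (0.10) or KO replicate 2 (0.0841) was left out, nor with upper quartile factors (0.0652). Birc3, which encodes the inhibitor of apoptosis cIAP2, was at 67.6 ± 13.4 CPM in KO and 39.99 ± 1.51 CPM in WT (0.76, SE 0.20, edgeR adjusted p = 0.0475). Birc3 was not called when WT replicate 1 (adjusted p = 0.255), WT replicate 2 (0.244) or KO replicate 2 (0.181) was left out, nor with DESeq2's size factors (0.0519).

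No gene of the death receptor pathway was called among the 8 tested of 9 listed (edgeR; none at an unadjusted p under 0.05 and none in DESeq2), and the median log2 fold change was -0.26. The smallest p-values were those of the adaptor gene Fadd, at 28.5 ± 10.7 CPM in KO and 41.7 ± 4.67 CPM in WT (-0.55, edgeR adjusted p = 0.238), and of the receptor gene Tnfrsf10b, at 14.5 ± 3.34 CPM in KO and 19.7 ± 0.967 CPM in WT (-0.44, adjusted p = 0.375). Fadd passed without KO replicate 1 (-0.998, adjusted p = 0.0187). Fas had 0 and 1 counts in KO and 3 and 14 counts in WT, too few to be tested.

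Of 16 regulators and targets of p53 and FOXO factors, which control transcription of Pmaip1, Bbc3 and Bcl2l11 in many cells, none was higher and 1 was lower in KO (edgeR; 1 higher and 3 lower at an unadjusted p under 0.05, and 0 higher and 1 lower in DESeq2). Their median log2 fold change was -0.02, and 3.01% of all genes tested were called lower. The lower gene was Cdkn1a, a p53 target that encodes the cell cycle inhibitor p21. It had 328 and 408 counts in KO and 838 and 2739 counts in WT (log2 fold change -1.98, SE 0.46, edgeR adjusted p = 0.0271). WT replicate 2 was far above WT replicate 1, and without it the value was -0.78 (adjusted p = 0.300); DESeq2 did not call Cdkn1a either (adjusted p = 0.109). Trp53, which encodes p53, was at 254 ± 67.6 CPM in KO and 391.5 ± 31.2 CPM in WT (-0.62). Trp53 did not pass in edgeR (adjusted p = 0.0621), and it was the gene of this list that DESeq2 called lower (adjusted p = 0.0164).

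Of 18 tested genes for partners and turnover of BCL2 family proteins, 1 was higher and 3 were lower in KO, with a median log2 fold change of -0.15. At an unadjusted p under 0.05 in edgeR 2 were higher and 5 lower, and DESeq2 called 2 higher and 4 lower. Over all genes tested 3.77% were higher and 3.01% lower, and with counts this small no excess is read from the list. The channel genes of the outer mitochondrial membrane Vdac3 and Vdac1 fell to 59.1 ± 8.12 and 129 ± 15.5 CPM in KO, against 119 ± 29.6 and 203 ± 22.7 CPM in WT (-1.01 and -0.65, edgeR adjusted p = 0.0163 and 0.0372). Ywhaz, which encodes the 14-3-3 protein zeta that holds phosphorylated BAD in the cytosol, fell to 1136 ± 91.0 CPM in KO, against 1610 ± 36.4 CPM in WT (-0.50, adjusted p = 0.0450). Pim1, a kinase known to phosphorylate BAD, rose to 79.1 ± 11.5 CPM in KO, against 43.2 ± 0.282 CPM in WT (0.87, adjusted p = 0.0202). Without WT replicate 1 none of these genes passed (edgeR adjusted p = 0.230 for Vdac3, 0.337 for Vdac1, 0.202 for Ywhaz and 0.172 for Pim1). Without WT replicate 2, Vdac1 (0.106), Ywhaz (0.197) and Pim1 (0.146) missed, and without KO replicate 2, Vdac1 (0.0678) and Ywhaz (0.108) missed. With upper quartile factors Vdac1 (0.0579) and Ywhaz (0.0774) missed, and with the stricter filter Ywhaz (0.0515).

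**Figure D4:**
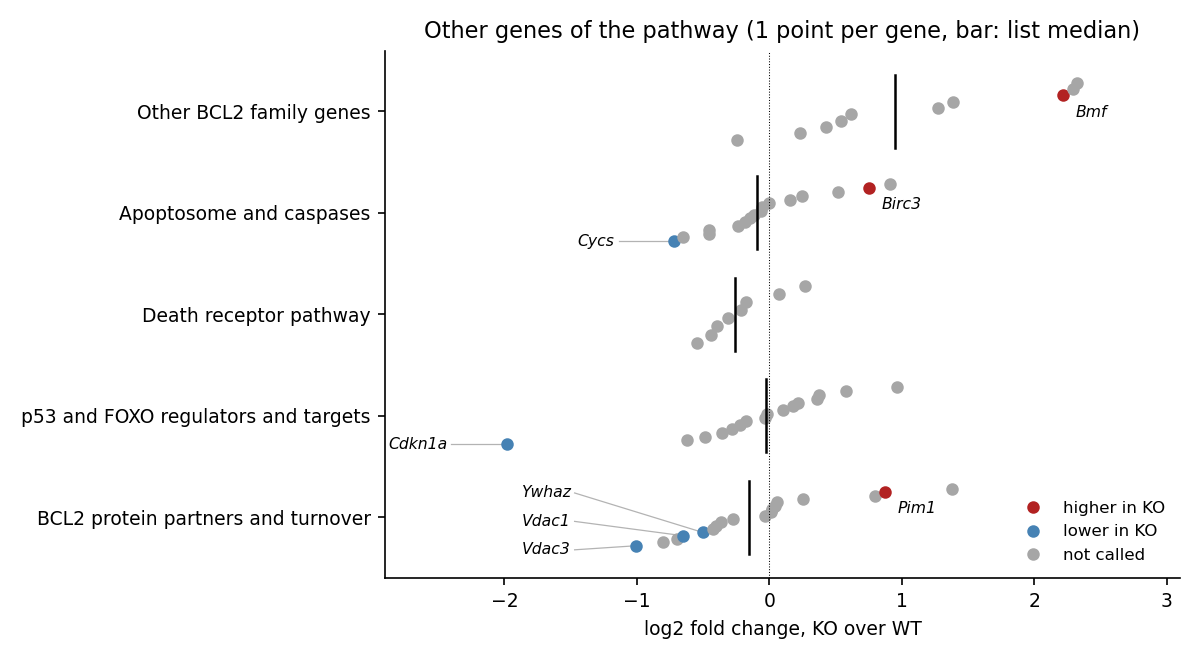
Log2 fold change (KO over WT) of every tested gene in the 5 lists of other pathway genes, 1 point per gene, with the list median as a bar and the called genes named. Bmf, Birc3 and Pim1 are higher, and Cycs, Cdkn1a, Vdac1, Vdac3 and Ywhaz lower, while the other points are not called.

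Markers of other cell types and of dividing cells moved with genotype in the same libraries. For the counts that follow, the share over all genes tested was 3.77% called higher and 3.01% called lower in KO. Of 12 B lineage genes 11 were lower in KO, and their summed level was 356 and 267 CPM in KO and 1120 and 1125 CPM in WT. Of 10 dendritic cell markers 7 were higher, with a sum of 1589 and 1463 CPM in KO and 554 and 592 CPM in WT, and Batf3 was at 0 counts in both WT libraries. Mast cells and basophils had 9 markers in the list, of which 6 were higher, at 193 and 118 CPM in KO and 22.7 and 17.3 CPM in WT in sum, and none was at 0 in a whole group. Of 12 proliferation genes 11 were lower, with a sum of 2079 and 2176 CPM in KO and 3558 and 3626 CPM in WT. Of 10 erythroid markers Hba-a1 and Hbb-bt had no counts in any library; 7 were tested, 2 were higher, and the sum was 479 and 381 CPM in KO and 142 and 237 CPM in WT. Of 10 neutrophil markers 6 were higher and 1, Mpo, was lower, with a sum of 1927 and 1608 CPM in KO and 1747 and 1777 CPM in WT. Monocytes and macrophages had 3 of 8 markers higher, with a sum of 297 and 261 CPM in KO and 161 and 155 CPM in WT. Megakaryocytes had 3 of 7 tested markers higher, with a sum of 660 and 651 CPM in KO and 482 and 528 CPM in WT. No T and NK cell marker was called among 7 tested (edgeR; 1 higher and 2 lower at an unadjusted p under 0.05, and 1 lower in DESeq2), and the sum was 103 and 101 CPM in KO and 119 and 123 CPM in WT. The part of these shifts in the rise of Pmaip1 and Bmf and in the fall of Bok was not tested.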

How the data were processed

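The authors deposited one table of raw read counts, by gene symbol, for 4 libraries on build mm10. HTSeq 0.8.0, Picard 2.9.4, SAMtools 1.5 and TopHat2 2.1.1 appear in the submitters' processing notes. Annotation, strand setting and duplicate handling: not given in the sources used here. Per the labels' protocols, libraries came from 20 ng of total RNA. The test was edgeR's (version 4.0.16, R 4.3.3; TMM factors, filterByExpr with a minimum count of 10 and a minimum total of 15, quasi-likelihood test, no covariate), with Benjamini-Hochberg adjustment over 14140 genes and a threshold of 0.05. Each SE is the log2 fold change divided by the root of F. Positions and exon lengths are from GENCODE M21 (the same build), and promoters from RefSeq. On simulated counts with 14081 genes tested, the test called 75 of the 100 genes with a 4-fold change, 38 of the 100 with a 2-fold change and 7 unchanged genes. Changed genes were drawn from those with at least 40 counts over all libraries. The simulated spread followed the trend for genes of like level, so genes with a wider spread of their own are not represented. DESeq2 1.42.0 was an alternative. The members and lists were chosen with earlier results of these data known. Named are all members, Zfp521, and in each of 5 pathway lists up to 4 called genes, or the 2 with the smallest p where none was called; other names were chosen after their values were seen. Intervals and floors of 3 counts cover counting error or library spread only.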

Additional observations from a re-analysis of the deposited data

How the results depend on the processing

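Bmf and Zfp521 kept their direction and passed the threshold in all 11 alternatives. Of the members, Mcl1 turned to 0.026 with upper quartile factors, and with 1 library left out it ran from -0.31 to 0.15 (0.15 without KO replicate 1, 0.14 without WT replicate 2). Bak1 then ran from -0.88 to 0.0236 and Bcl2l11 from -0.0517 to 0.40, each turning without KO replicate 2. Bak1 was called lower without KO replicate 1. With each library left out, 0 to 1 members were higher and 0 to 2 lower, 1 to 4 genes of the 5 pathway lists were higher and 1 to 11 lower, against 3 and 5 with all libraries. Over all genes 160 to 997 were then higher and 95 to 1161 lower, against 533 and 425, with the lowest counts without WT replicate 1 and the highest without KO replicate 1. DESeq2 called 854 higher and 817 lower, and edgeR without a filter 1056 and 987, with 9 pathway genes lower. Upper quartile factors left 2 pathway genes lower, and 69.7% of calls were then higher, against 55.6%. The cause of these shifts was not tested. The libraries' replicate numbers are shared between genotypes, but nothing in the labels pairs them, and the correlation of same-numbered deviations across 12968 genes was 0.0978. With the replicate number as a block, 1312 genes were higher and 1314 lower, 5 and 12 of them in the pathway lists, and 1 member was called in each direction as before. Per longest transcript, 6 members reached 10 CPM per kb in WT, against 3 per exon union. Few counts limit Bok in KO and Pmaip1 in WT.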
